A study of Bos taurus with 4 samples.

Results

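DNA methylation and demethylation enzymes write, copy and remove 5-methylcytosine, the methyl mark on CpG sites of the genome. The genes followed here were the maintenance pair DNMT1 and UHRF1, the de novo methyltransferases DNMT3A and DNMT3B, the TET dioxygenases TET1, TET2 and TET3, and the glycosylase TDG. All probes that the array's annotation assigns to one of these 8 symbols were taken, whatever their values. These were 16 of the array's 43794 probes for bovine transcripts, for 7 of the 8 genes: 2 for DNMT1, 1 for UHRF1, 3 for DNMT3A, 1 for DNMT3B, 3 for TET2, 1 for TET3 and 5 for TDG. No probe carried the symbol TET1, which was not analysed here.

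Messenger RNA had been measured in pools of in vitro early blastocysts of Holstein cattle (Bos taurus), collected 168 hours after fertilization in the dish. Each of 4 two-colour arrays compared the pool from oocytes of a heifer aged 11 months with the pool from oocytes of the same heifer aged 14 months. The 4 heifers, numbered as the replicates are in the labels, had all been given progesterone and FSH before oocyte collection, and adult bull semen was used at both ages. In heifers 1 and 2 the pool of 11 months was labelled with Cy5, and in heifers 3 and 4 with Cy3, the pool of 14 months taking the other dye. How many embryos made up a pool is not stated, and a pool mixes all cells of its embryos. Donor age and the calendar time at which oocytes were taken cannot be told apart.

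In mammals, DNMT1 copies methylation onto the new DNA strand after replication, and UHRF1 brings it to hemimethylated sites. DNMT3A and DNMT3B set new methylation. TET enzymes oxidize 5-methylcytosine, and TDG excises the most oxidized forms so that base excision repair can put an unmethylated cytosine in their place. In the mouse, the embryo's genome is at its least methylated around the blastocyst stage, after a loss to which TET3 from the oocyte contributes, and methylation is laid down anew as the embryo implants.

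Signals are given as log2 levels, the intensity of a pool on its probe after background correction and normalization, and differences as log2 ratios of 11 over 14 months, positive where the 11-month pool was brighter. Levels are compared within a probe only. Over all arrays, 36447 probes exceeded the negative control spots in mean signal and were tested. Their ratios correlated at r = 0.58 between heifers 1 and 2 and at r = 0.28 between heifers 3 and 4, and at -0.18 to 0.14 between heifers of opposite dye orientation. This is across probes, which are not independent replicates. Precision is limited throughout by having 4 arrays.

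Of the 16 probes 13 were tested, and 11 lay above background in both pools of all 4 heifers. The 3 that were not tested were EMBV3_08570 of DNMT1, EMBV3_11056 of TET2 and EMBV3_12923 of TDG, with mean log2 signals of 6.27, 6.47 and 6.49 against a limit of 6.50. Their mean ratios were -0.01 ± 0.14, -0.0030 ± 0.16 and -0.04 ± 0.06 (SD, n = 4), and the DNMT1 probe was above background in 0 of 4 pools at either age. No fold is given for these 3.

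The highest ratios among the enzymes were those of TET3, of 1 probe of DNMT3A and of 1 probe of TDG, all higher in the 11-month pools, and the lowest were those of DNMT1 and DNMT3B. None passed an adjusted p of 0.05 in limma with Benjamini-Hochberg adjustment over all 36447 probes, and the lowest adjusted p of any probe on the array was 0.388. The share of tested probes past that threshold was 0%. An unadjusted p under 0.05 was found for 3 of 13 enzyme probes, 3 higher and 0 lower, or 23.1%, against 9.46% of all tested probes (3.7% higher and 5.76% lower). Of the 13 mean ratios, 8 were positive and 5 negative, with a median of 0.04, beside a median of 0.0030 over all tested probes. In 1 of the 13 probes all 4 heifers had the same sign, against 16.7% of all tested probes. In 0 of the 13 were the levels of the ages free of overlap, which held for 3.03% of all tested probes. The same count at an unadjusted p under 0.05 was 4 of 13 in the authors' deposited ratios, against 9.2% of all tested probes. It was 3 of 13 with median centring in place of loess, against 5.62%, and 1 of 13 when the channels were taken as unpaired samples, against 7.07%.

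**Figure D1:**
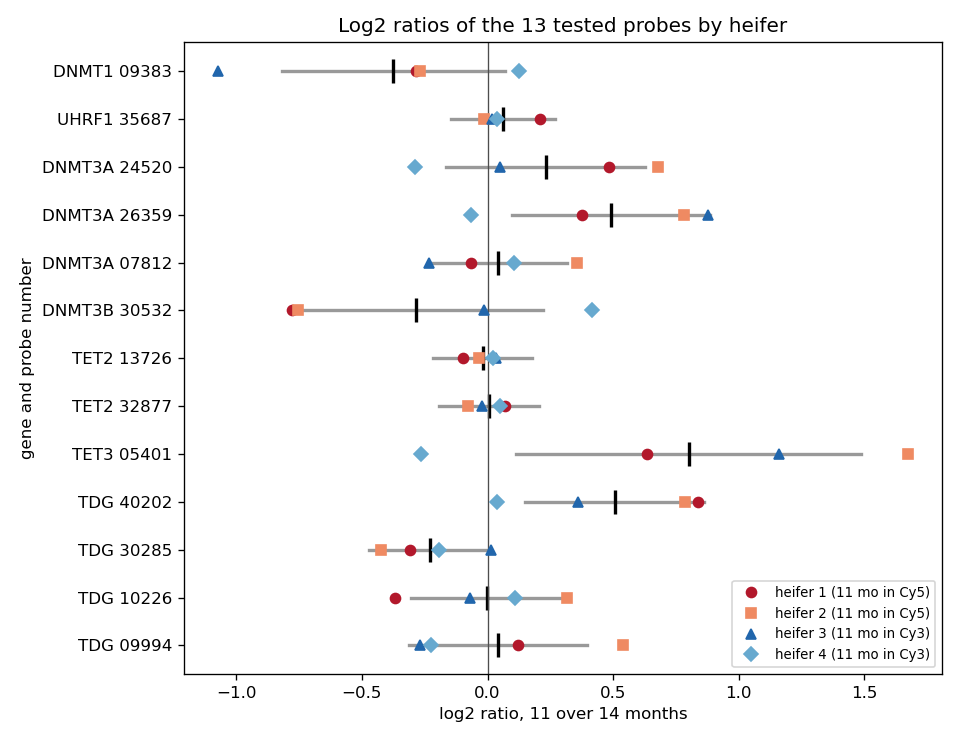
Log2 ratio of 11 over 14 months (x axis) for each of the 13 tested probes (rows, gene and the digits of the probe name). Coloured symbols are the 4 heifers, the black tick is their mean and the grey bar limma's 95% interval of the mean; TET3 spans -0.26 to 1.67, while both TET2 probes stay within -0.10 to 0.07.

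Of the TET dioxygenases, TET3 is the form that the mammalian oocyte hands on to the embryo. On its only probe, EMBV3_05401, the log2 level was 9.46, 11.47, 11.65 and 10.34 in the 11-month pools of heifers 1 to 4, against 8.83, 9.80, 10.49 and 10.60 in the 14-month pools. The levels of the ages overlapped, and the 11-month pools of heifers 2 and 3 were the highest of the 8. Within heifers, the ratio was 0.64, 1.67, 1.16 and -0.26: TET3 was higher at 11 months in 3 of 4 heifers, and slightly lower in heifer 4.

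The mean ratio of TET3 was 0.80 ± 0.83 (SD, n = 4), or 1.74-fold, with a 95% interval from 1.08-fold to 2.80-fold. The unadjusted p was 0.0283 and the adjusted p 0.465. A mean ratio of at least this size in either direction was found in 0.321% of tested probes, and an SD between heifers of at least this size in 1.37%. In the authors' deposited log2 ratios the mean was 0.81 ± 0.84, with 0.72, 1.75, 1.04 and -0.27 in heifers 1 to 4. Without heifer 4 the mean was 1.16 at an unadjusted p of 0.00105 and an adjusted p of 0.292, and without heifer 1, 2 or 3 in turn it lay between 0.51 and 0.86 and did not reach an unadjusted p under 0.05.

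TET2, which in adult tissues is best known from blood-forming cells, was close to background. EMBV3_13726 was above background in 2 of 4 pools at 11 months and in 3 of 4 at 14 months, and EMBV3_32877 in 3 of 4 at each age. On EMBV3_13726 the levels were 6.64, 6.86, 6.71 and 6.60 at 11 months, against 6.74, 6.89, 6.68 and 6.58 at 14 months, and the ratio averaged -0.02 ± 0.06 (SD, n = 4). On EMBV3_32877 the ratio averaged 0.0046 ± 0.07, from -0.08 in heifer 2 to 0.07 in heifer 1. The 95% intervals ran from 0.86-fold to 1.13-fold on EMBV3_13726 and from 0.87-fold to 1.15-fold on EMBV3_32877. A signal this near to background can hide a larger difference in the transcript, so that these narrow intervals describe the probes.

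The de novo methyltransferases had means of opposite sign, a contrast that was not tested. DNMT3A, which also sets the methylation of the growing oocyte in the mouse, was read by 3 probes. On EMBV3_26359 the log2 level was 9.96, 9.74, 9.72 and 8.39 in the 11-month pools, against 9.58, 8.96, 8.84 and 8.45 in the 14-month pools. Both pools of heifer 4 were the lowest on this probe, and the ratio was positive in the other 3 heifers, at 0.38, 0.78 and 0.88, and -0.06 in heifer 4. The mean was 0.49 ± 0.43 (SD, n = 4), or 1.41-fold with a 95% interval of 1.07-fold to 1.85-fold, at an unadjusted p of 0.0213 and an adjusted p of 0.444. Without heifer 1 or 4 it stayed at an unadjusted p under 0.05, at 0.53 and 0.68, and without heifer 2 or 3 it did not, at 0.40 and 0.36.

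On EMBV3_24520, the brightest probe of DNMT3A, the log2 level was 14.30, 14.01, 14.20 and 13.94 at 11 months, against 13.82, 13.33, 14.14 and 14.23 at 14 months. The ratio was 0.48 and 0.68 in heifers 1 and 2 and 0.05 and -0.29 in heifers 3 and 4, so that the heifers with the 11-month pool in Cy5 were high and the others near or under 0. Its mean was 0.23 ± 0.43, with an unadjusted p of 0.207 and an adjusted p of 0.755. Without heifer 4 it was 0.40 at an unadjusted p of 0.0366 and an adjusted p of 0.417, and without heifer 1, 2 or 3 it was 0.15, 0.08 and 0.29 and did not reach an unadjusted p under 0.05. In the authors' deposited log2 ratios all 4 heifers were positive on this probe, at 0.35, 0.62, 0.35 and 0.12, and the mean was 0.36 ± 0.20 at an unadjusted p of 0.023 and an adjusted p of 0.455. This was the largest shift between the deposited and the recomputed mean among the enzyme probes, 0.13, and the one that moved a probe past the unadjusted threshold.

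The remaining DNMT3A probe, EMBV3_07812, had a mean ratio of 0.04 ± 0.25, between -0.23 in heifer 3 and 0.36 in heifer 2, at an adjusted p of 0.957. Averaged within each heifer over its 3 probes, DNMT3A was at 0.26, 0.61, 0.23 and -0.08, with a mean of 0.25 ± 0.28. The probes differed by 0.45 between the highest and the lowest mean. A range of this size or more was found in 164 of the 1151 genes with 3 tested probes, DNMT3A itself included, whose median range was 0.23. The largest difference between DNMT3A probes, EMBV3_26359 minus EMBV3_07812, was 0.45 ± 0.52, positive in 3 of 4 heifers, with an exact two-sided sign-flip permutation p of 0.25.

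DNMT3B is the main de novo enzyme of the early epiblast in the mouse. On its only probe, EMBV3_30532, the log2 level was 9.69, 9.31, 10.01 and 9.28 in the 11-month pools, against 10.47, 10.07, 10.02 and 8.86 in the 14-month pools. The 14-month pools thus ranged more widely, holding both the highest and the lowest level. The ratio was -0.78 and -0.76 in heifers 1 and 2, -0.01 in heifer 3 and 0.42 in heifer 4, so that DNMT3B was lower at 11 months in the heifers of one dye orientation and not in those of the other. The mean was -0.28 ± 0.59 (SD, n = 4), or 0.82-fold with a 95% interval of 0.58-fold to 1.17-fold, at an unadjusted p of 0.225 and an adjusted p of 0.768. Without heifer 4 it was -0.52 at an unadjusted p of 0.0272 and an adjusted p of 0.384, and without heifer 1, 2 or 3 it was -0.12, -0.13 and -0.37 and did not reach an unadjusted p under 0.05. An SD of this size or more was found in 4.59% of tested probes.

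**Figure D2:**
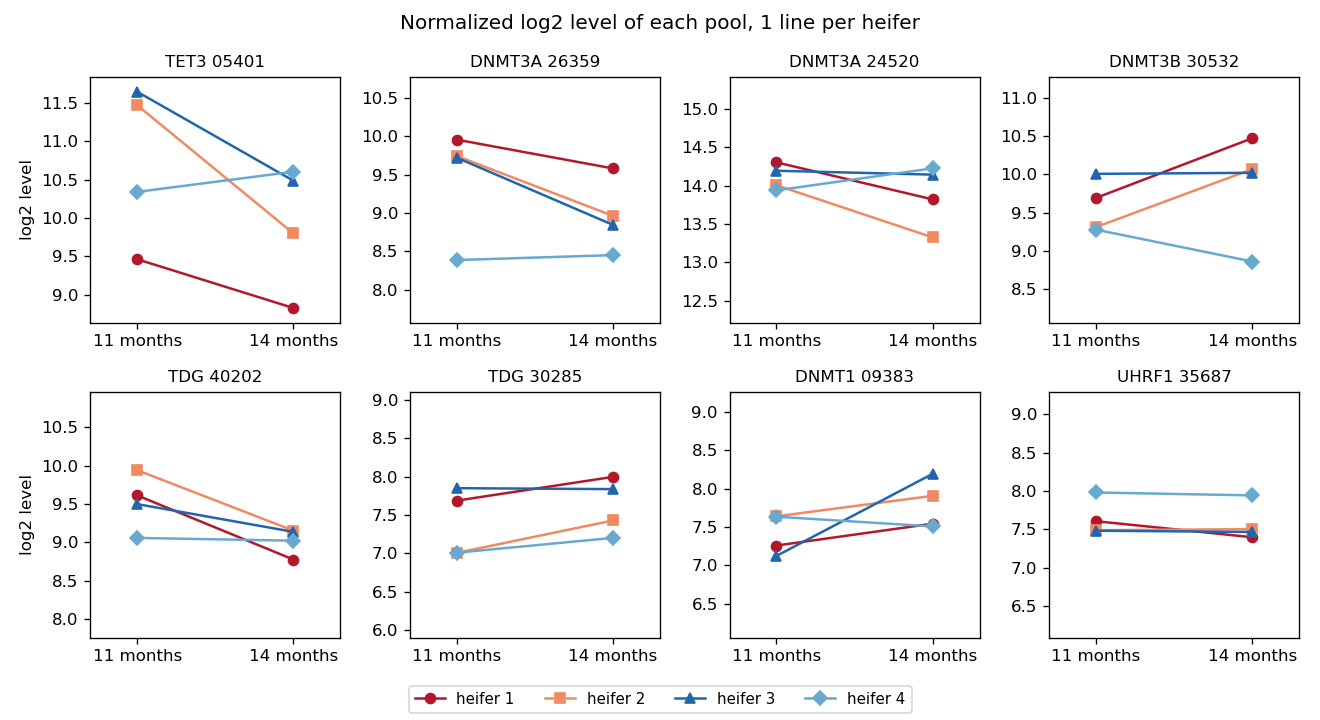
Normalized log2 level (y axis, the same span in every panel) in the pools of donors aged 11 months (left) and 14 months (right), 1 line per heifer, for 8 probes. TET3 is higher at 11 months in 3 of 4 heifers, DNMT3B is lower at 11 months in heifers 1 and 2 and level or higher in heifers 3 and 4, and the lines of UHRF1 are nearly flat.

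Of the maintenance pair, DNMT1 had a negative mean and UHRF1 a mean near 0; the contrast between them was not tested. For DNMT1, on EMBV3_09383, the log2 level was 7.26, 7.64, 7.12 and 7.63 at 11 months, against 7.54, 7.90, 8.19 and 7.51 at 14 months. The ratio was -0.29, -0.27 and -1.07 in heifers 1 to 3 and 0.13 in heifer 4, so that heifer 3 lay lowest and both dye orientations held a negative mean, -0.28 and -0.47. The mean was -0.37 ± 0.50 (SD, n = 4), or 0.77-fold with a 95% interval of 0.57-fold to 1.05-fold, at an unadjusted p of 0.0859 and an adjusted p of 0.61. Without heifer 4 it was -0.54 at an unadjusted p of 0.0257 and an adjusted p of 0.378. Without heifer 1, 2 or 3 it was -0.40, -0.41 and -0.14 and did not reach an unadjusted p under 0.05.

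UHRF1, on EMBV3_35687, had levels of 7.60, 7.49, 7.48 and 7.98 at 11 months, against 7.40, 7.50, 7.46 and 7.94 at 14 months. The ratio was 0.21 in heifer 1 and between -0.01 and 0.04 in the others, and heifer 4 had the highest level at both ages. The mean was 0.06 ± 0.10 (SD, n = 4), or 1.04-fold with a 95% interval of 0.90-fold to 1.21-fold, at an adjusted p of 0.901. The spread of UHRF1 between heifers was smaller than that of most probes: 87.7% of tested probes had at least its SD.

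TDG, the glycosylase that acts after the TET enzymes, was read by 4 tested probes, the most of these enzymes. On its brightest probe, EMBV3_40202, the log2 level was 9.61, 9.94, 9.50 and 9.06 in the 11-month pools, against 8.77, 9.15, 9.14 and 9.02 in the 14-month pools. This was the one enzyme probe with a positive ratio in all 4 heifers, at 0.84, 0.79, 0.36 and 0.04, and the levels overlapped only through the 11-month pool of heifer 4. The mean was 0.51 ± 0.38 (SD, n = 4), or 1.42-fold with a 95% interval of 1.11-fold to 1.82-fold, at an unadjusted p of 0.0126 and an adjusted p of 0.427. Without heifer 3 or 4 it stayed at an unadjusted p under 0.05, at 0.55 and 0.66, and without heifer 1 or 2 it did not, at 0.40 and 0.41.

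On EMBV3_30285 the levels were 7.69, 7.01, 7.85 and 7.01 at 11 months, against 8.00, 7.43, 7.84 and 7.20 at 14 months. The ratio was -0.31, -0.42, 0.01 and -0.19, with a mean of -0.23 ± 0.19, an unadjusted p of 0.0607 and an adjusted p of 0.554, so that this probe pointed the other way in 3 of 4 heifers. Without heifer 3 its mean was -0.31 at an unadjusted p of 0.0315 and an adjusted p of 0.538. Without heifer 1, 2 or 4 its mean was -0.20, -0.16 and -0.24 and did not reach an unadjusted p under 0.05. EMBV3_10226 averaged -0.0026 ± 0.29 and EMBV3_09994 0.04 ± 0.37, at adjusted p-values of 0.998 and 0.969. Their mean log2 signals of 6.97 and 6.84 lay near the limit of 6.50, although both probes were above background in every pool. Such dim probes can hide a larger difference in the transcript. On EMBV3_09994 heifers 1 and 2 were positive, at 0.12 and 0.54, and heifers 3 and 4 negative, at -0.27 and -0.22.

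EMBV3_40202 exceeded EMBV3_30285 in all 4 heifers, by 0.23 to 1.21 and on average by 0.73 ± 0.52. It also exceeded EMBV3_09994 in all 4, by 0.46 ± 0.24. For each of these the exact two-sided sign-flip permutation p was the smallest that 4 heifers allow, which is above 0.05, and it was 0.625 after Benjamini-Hochberg adjustment over the 10 pairs of probes compared within DNMT3A, TET2 and TDG. A range between probes at least as wide as that of TDG was found in 11 of the 214 genes with 4 tested probes, TDG itself included, whose median range was 0.32. Of the 3374 genes with several tested probes, 57.5% had probes of both signs. Averaged over its 4 tested probes, TDG was at 0.07, 0.31, 0.01 and -0.07 in heifers 1 to 4, a mean of 0.08 ± 0.16. This average weights the dim probes EMBV3_10226 and EMBV3_09994 like the brighter ones. The sources used here do not say which transcript each TDG probe reads, and the direction for the gene is not settled.

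Among 13518 other named genes, each by its brightest probe, the 3 whose ratios lay nearest to those of EMBV3_40202 of TDG over the 4 heifers were UBE2D2, a ubiquitin-conjugating enzyme, LYZ1, a lysozyme, and SNAPC5, a subunit of the complex for transcription of small nuclear RNAs. Their root mean square differences from TDG were 0.06, 0.08 and 0.08. UBE2D2 was at 0.91, 0.83, 0.44 and 0.09 in heifers 1 to 4. With 4 points and so many genes searched, such nearness is a description only.

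Several of these enzymes had unlike ratios in the dye orientations. The means of heifers 1 and 2, and of heifers 3 and 4, were 1.15 and 0.45 for TET3, 0.58 and 0.41 for EMBV3_26359 of DNMT3A, and 0.81 and 0.20 for EMBV3_40202 of TDG. The 3 probes with the highest means thus had positive means in both orientations. In heifers 3 and 4 TET3 was at 1.16 and -0.26 and EMBV3_26359 at 0.88 and -0.06, so that these positive means came from heifer 3. The means of the orientations were -0.77 and 0.20 for DNMT3B, 0.58 and -0.12 for EMBV3_24520 of DNMT3A and 0.33 and -0.25 for EMBV3_09994 of TDG, which changed sign. In the authors' deposited log2 ratios EMBV3_24520 was positive in all 4 heifers, at 0.35, 0.62, 0.35 and 0.12, and did not change sign. With orientation as a term in the fit, the orientation effect had an unadjusted p of 0.0019 and an adjusted p of 0.0713 for DNMT3B, and of 0.00784 and 0.12 for EMBV3_24520. For TDG it had an unadjusted p of 0.011 and an adjusted p of 0.133 on EMBV3_40202, and of 0.0206 and 0.169 on EMBV3_09994. These were the 4 of 13 enzyme probes with an unadjusted p under 0.05 for orientation, and 0 of 13 passed the adjusted threshold. Over all tested probes 1.41% passed the adjusted threshold for orientation and 20.4% an unadjusted p under 0.05; the heifers of an orientation share it, so that dye and heifer cannot be told apart here.

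With the orientation term, 6 of 13 enzyme probes had an unadjusted p under 0.05 for age, 4 higher and 2 lower, against 16.3% of all tested probes, and 0 of 13 passed the adjusted threshold. TDG EMBV3_40202 came nearest, at an unadjusted p of 0.000914 and an adjusted p of 0.0762. In heifers 1 and 2 alone, 5 of 13 enzyme probes passed the adjusted threshold, against 7.92% of all tested probes. They were the probes EMBV3_40202 of TDG, EMBV3_05401 of TET3 and EMBV3_26359 and EMBV3_24520 of DNMT3A, higher, and EMBV3_30532 of DNMT3B, lower, with adjusted p-values of 0.00824 to 0.0471. Within these 2 arrays dye and age are fully confounded. In heifers 3 and 4 alone 0 of 13 had an unadjusted p under 0.05, against 11.3% of all tested probes.

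**Figure D3:**
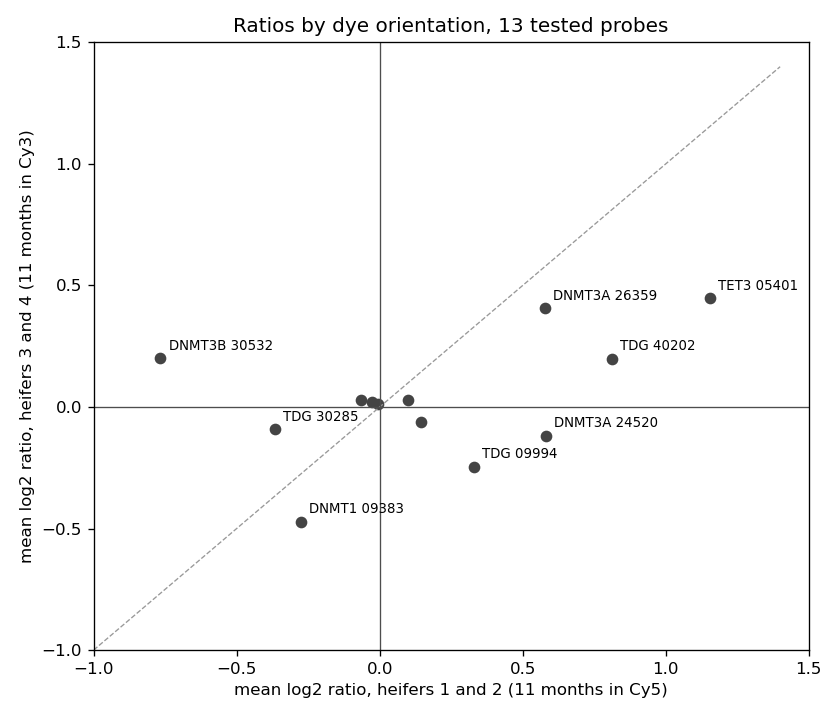
Mean log2 ratio of 11 over 14 months in heifers 1 and 2 (x axis, 11-month pool in Cy5) and in heifers 3 and 4 (y axis, 11-month pool in Cy3), 1 point per tested probe, with a dashed line of equality. TET3, EMBV3_40202 of TDG and EMBV3_26359 of DNMT3A are positive on both axes, DNMT1 and EMBV3_30285 of TDG are negative on both, and DNMT3B lies at -0.77 and 0.20; the unlabelled points near the origin are both TET2 probes, UHRF1, EMBV3_10226 of TDG and EMBV3_07812 of DNMT3A.

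Heifer 4 had the lowest or the highest ratio of the 4 heifers in 6 of the 13 enzyme probes, close to the 43.9% of all tested probes. It was the lowest for TET3, for EMBV3_26359 and EMBV3_24520 of DNMT3A and for EMBV3_40202 of TDG, and the highest for DNMT1 and DNMT3B. Heifers 1 and 3 were lowest or highest in 6 enzyme probes each, against 54.7% and 52.8% of all tested probes, and heifer 2 in 8, against 48.6%. Heifer 2 was the highest for TET3, EMBV3_24520 and EMBV3_07812 of DNMT3A, and EMBV3_10226 and EMBV3_09994 of TDG. It was the lowest for UHRF1, EMBV3_32877 of TET2 and EMBV3_30285 of TDG. Without heifer 4, 6 of 13 enzyme probes had an unadjusted p under 0.05, against 10.9% of all tested probes, and without heifer 2 there were 0, against 4.27%. Without heifer 1 the count was 1 of 13, against 7.78%, and without heifer 3 it was 2 of 13, against 8.77%. The 12 trophectoderm markers, all tested and 10 of them above background in every pool, had median ratios of 0.29, 0.35 and 0.16 in heifers 1 to 3 and -0.28 in heifer 4. Their mean log2 level lay between 10.00 and 10.62 in the 11-month pools and between 10.11 and 10.37 in the 14-month pools. These medians hide unlike markers, of which 8 had a positive and 4 a negative mean. KRT8 was at 1.37, 1.15, -1.57 and -1.61 in heifers 1 to 4, and KRT18 at 0.98, 0.55, -0.63 and -0.71. Both thus changed sign with dye orientation, while AQP3 was positive in all 4 heifers, at 0.31, 0.77, 1.06 and 0.26. AQP3 was the 1 of the 12 with an unadjusted p under 0.05 in limma, at an adjusted p of 0.398, against 10.1% of all named genes. The 9 inner cell mass markers had median ratios of -0.10, -0.06, -0.06 and 0.06, and mean levels of 9.25 to 9.33 at 11 months against 9.22 to 9.28 at 14 months. At an unadjusted p under 0.05 in limma, 1 of the 9 was higher and 1 lower, against 10.1% of all named genes. These were NANOG, at 0.55, 1.49, 1.33 and 1.01, and SPP1, at -0.25, -0.46, -0.43 and -0.51, both at an adjusted p of 0.388. Of 4 measured primitive endoderm markers, 0 were higher and 1, GATA4, lower at -0.31 ± 0.26, with a list median of 0.08. The part of any lineage in the ratios of the enzymes was not tested, and fewer cells of a type and less RNA per cell cannot be told apart in such pools.

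Of the oocyte markers 9 of 10 were tested and 2 were above background in every pool, and of the cumulus and granulosa markers 9 of 12 were tested and 6 were above background in every pool. Median ratios were -0.05 and -0.01, with mean levels of 6.75 to 7.05 at 11 months against 6.96 to 7.04 at 14 months for oocyte markers, and of 7.24 to 7.49 against 7.31 to 7.46 for cumulus and granulosa markers. At an unadjusted p under 0.05 in limma, 0 of the 9 oocyte markers were higher and 1, NLRP5, lower, against 10.1% of all named genes. Of the 9, 7 had negative means. Among the 9 cumulus and granulosa markers 0 were higher and 0 lower. None of these lists had a member past the adjusted threshold.

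Around the enzymes, 90 further genes of the pathway were listed in 6 groups, and 73 were measured. At an unadjusted p under 0.05 there were 2 higher and 4 lower, or 8.22%, against 10.1% of all 13519 named genes taken by their brightest probe, and 0 passed the adjusted threshold (0% of all named genes). The median ratio of the 73 was -0.03, beside 0.0021 over all named genes.

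The 14 partners of maintenance methylation had 0 higher and 1 lower, with a median of -0.06. EHMT1, a histone H3 lysine 9 methyltransferase, was at -0.32 ± 0.26 (SD, n = 4), negative in all 4 heifers. USP7, a deubiquitinase that binds DNMT1 and UHRF1, was at -0.39 ± 0.54, with -1.02 and -0.67 in heifers 1 and 2 and 0.07 and 0.06 in heifers 3 and 4, and the H3K9 methyltransferase SUV39H1 at -0.26 ± 0.33. The 12 measured partners of de novo methylation and guards of imprints had 0 higher and 1 lower, with a median of -0.07. The lower one was NLRP5, a maternal protein of the oocyte cortex, at -0.30 ± 0.16 from a probe above background in 1 of 4 pools at 11 months and in all 4 at 14 months. SETDB1, which methylates H3K9 with TRIM28, was at -0.27 ± 0.37 and the insulator protein CTCF at 0.14 ± 0.27. DNMT3L, the cofactor of the de novo enzymes, was named after its values were seen; it was at 0.03 ± 0.04, above background in 3 of 4 pools at each age.

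Among 7 measured readers of methyl-CpG, ZBTB38 was higher at 0.29 ± 0.10 and MBD1 lower at -0.28 ± 0.24, with unadjusted p-values of 0.0137 and 0.0439 and adjusted p-values of 0.436 and 0.515. ZBTB38 was positive in all 4 heifers, at 0.23, 0.34, 0.40 and 0.18. ZBTB33, the reader Kaiso, was at 0.18 ± 0.25. Both ZBTB38 and ZBTB33 are zinc-finger proteins that bind methylated DNA and repress transcription.

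Of 19 measured genes listed under base excision repair after TDG, 0 passed an unadjusted p under 0.05 in either direction, and their median was -0.04. The list also holds GADD45A, GADD45B, GADD45G, APOBEC1 and APOBEC2, which are not enzymes of this repair. NEIL1, a glycosylase for oxidized bases, was at -0.20 ± 0.15, and the abasic site nucleases APEX1 and APEX2 at -0.28 ± 0.39 and -0.21 ± 0.26. Among 11 measured cofactors and partners of the TET enzymes, CXXC5 was higher at 0.23 ± 0.10, at 0.31, 0.14, 0.34 and 0.15 in heifers 1 to 4. CXXC5 carries a CXXC domain, and its relative CXXC4 binds TET2. PGP, a phosphatase of phosphoglycolate, was at -0.25 ± 0.21, with an unadjusted p of 0.0495 and an adjusted p of 0.527. It was the list's 1 lower gene and 1 of the 4 lower genes of the pathway, but PGP, like VDR of the same list, is only weakly tied to TET cofactors. OGDH, the 2-oxoglutarate dehydrogenase subunit, was at -0.24 ± 0.53. The list's median was 0.02.

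The 11 measured genes of methyl donor supply had 0 higher and 0 lower, with a median of 0.0069. BHMT, which remethylates homocysteine from betaine, was at -0.62 ± 0.77, from 0.25 in heifer 1 to -1.59 in heifer 4, above background in 3 of 4 pools at each age. AHCY, which clears the methylation inhibitor S-adenosylhomocysteine, was at -0.23 ± 0.39, and CBS, which draws homocysteine into cysteine synthesis, at -0.12 ± 0.16.

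**Figure D4:**
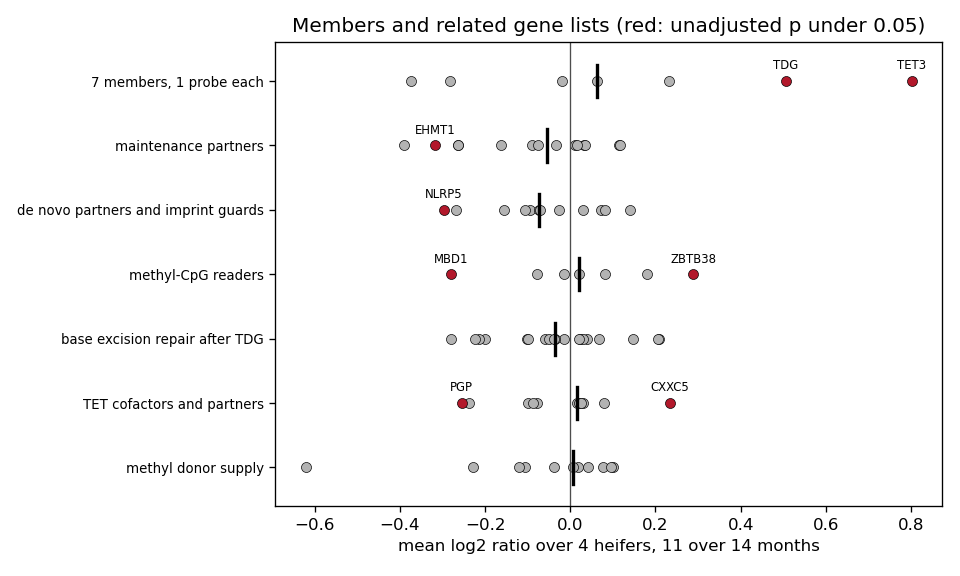
Mean log2 ratio of 11 over 14 months over 4 heifers (x axis) for the 7 measured enzymes by their brightest probe and for 6 lists of related genes (rows); each point is a gene, the black bar the row's median, and red marks an unadjusted p under 0.05. TET3 at 0.80 and the brightest TDG probe at 0.51 lie to the right of every gene of the 6 lists, of which BHMT at -0.62 is the lowest. Over its 4 tested probes, dim and bright weighted alike, TDG averaged 0.08.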

How the data were processed

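The deposited scanner files give the intensity of each spot and its local background in both channels, on a linear scale and not background-corrected, per the file headers. The authors also deposited normalized log2 ratios, as a table and as a series matrix; how they normalized is not stated in the sources used here. The matrix correlated at 0.927 to 0.994 with the ratios recomputed here, with slopes of 1.06 to 1.34. Heifer 4 had the lowest correlation and the highest slope, against correlations of 0.978 to 0.994 and slopes of 1.06 to 1.09 in the others. The matrix ran 11 over 14 months on all arrays. Its column medians were 0.00853, 0.00336, 0.00104 and 0.0234, and its centring stays unknown.

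In R 4.3.3 with limma 3.58.1, median signals were corrected by normexp (offset 50) and normalized by loess within arrays, with 1426 control and blank spots at weight 0. Levels were then scaled between arrays by Aquantile, which keeps the ratios. Probes were tested if their mean log2 signal lay more than 2 SD above the mean of 153 negative control spots; the same limit per channel and array, on signals before loess, defined above background. The ratios were fitted with lmFit and eBayes as 1 mean over 4 heifers, two-sided, and p-values were adjusted by Benjamini-Hochberg over all tested probes; all unadjusted p-values of age and orientation are limma's. Each ratio pairs the ages of a heifer. The labels name different heifers, so that the spread is between arrays of different animals. It also holds differences of array and dye orientation, which cannot be told apart from those between animals. The fit was run on simulated arrays with independent noise and no effect of dye orientation. The real arrays correlated within an orientation, which the simulation did not cover. Symbols came from the platform annotation, updated through the ARS-UCD2.0 gene table; 21790 probes had 1 symbol, 0 several and 22004 none. The text names every enzyme probe, the 3 genes of smallest unadjusted p in each pathway list, by the brightest probe, and the 3 genes nearest to the enzyme of smallest p. The lineage markers named singly were chosen after their values were seen. Members and lists were chosen with earlier results of these data known. Plots used Python 3.11.15 and matplotlib 3.10.9.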

Additional observations from a re-analysis of the deposited data

Results flagged for a closer look

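In a comparison of the most extreme of 4 values with its nearest neighbour, made for the ratios and for the levels at each age on 16 probes, 1 of 48 groups stood apart, and chance gives about 1 in 20. It was the 11-month level of EMBV3_26359 of DNMT3A in heifer 4, at a log2 level of 8.39, against 9.72 to 9.96 in the other 3 heifers. The 14-month level of heifer 4 on this probe, 8.45, was also the lowest of its age.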

How the results depend on the processing

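No enzyme probe passed the adjusted threshold of limma under any alternative except heifers 1 and 2 alone. TET3, DNMT3A EMBV3_26359, TDG EMBV3_40202, TDG EMBV3_30285 and DNMT1 EMBV3_09383 kept their direction under all 14 alternatives, TET3 between 0.45 and 1.16. Among the 14, dropping the filter, adding the dye term and leaving out the replicate block cannot change a probe's mean. Their lack of reversals was thus fixed in advance. Other probes turned sign: TDG EMBV3_10226 was at 0.045 with background subtraction, 0.022 with no background correction, 0.075 with mean signals, 0.037 with median centring, 0.033 in the deposited matrix and 0.020 in heifers 3 and 4; TDG EMBV3_09994 at -0.0037 in the matrix and -0.25 in heifers 3 and 4; TET2 EMBV3_32877 at -0.0016 with no background correction and -0.0043 in heifers 1 and 2; TET2 EMBV3_13726 at 0.027, DNMT3A EMBV3_24520 at -0.12 and DNMT3B at 0.20 in heifers 3 and 4; DNMT3A EMBV3_07812 at -0.0047 with mean signals and -0.063 in heifers 3 and 4; and UHRF1 at -0.032 with mean signals. Without 1 heifer, TDG EMBV3_10226 ranged over -0.11 to 0.12, TDG EMBV3_09994 over -0.12 to 0.14, DNMT3A EMBV3_07812 over -0.064 to 0.13, TET2 EMBV3_13726 over -0.037 to 0.0069 and TET2 EMBV3_32877 over -0.017 to 0.032. The causes were not tested. An unadjusted p under 0.05 was reached by 3448 probes, 3 of them of the enzymes, and by 6 list genes; the counts were 2050, 3 and 0 with median centring, 5936, 6 and 15 with the dye term, 8406, 6 and 18 in heifers 1 and 2, 4131, 0 and 10 in heifers 3 and 4, and 1557 to 3956, 0 to 6 and 3 to 8 without 1 heifer. In heifers 1 and 2, 2886 probes, 5 of the enzymes and 5 list genes passed the adjusted threshold. With no replicate block, the channels as separate samples, 2576 probes, 1 enzyme probe and 4 list genes had an unadjusted p under 0.05 and 1 probe passed the adjusted threshold. All other counts were within 1.5 times.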
